A study of Mus musculus with 26 samples.

Results

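The genes described here encode 10 transcription factors of the mouse oocyte: Figla, Nobox, Lhx8, Sohlh1, Sohlh2, Taf4b, Tbpl2, Foxo3, Nr6a1 and Pou5f1. They were taken by symbol from a table of read counts with 24542 features, and all 10 were present. RNA was measured in germinal vesicle (GV) oocytes, which are fully grown and arrested before meiosis resumes. Polyadenylated RNA from 10 pooled oocytes went into each library, and replicates of a group are separate pools that the labels describe as biological. How many females supplied a pool is not stated in the labels, so the p-values measure the spread between pools.

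The control oocytes, called WT, carried the floxed low-complexity domain of Tet3 (Tet3 LCDf/f) and no Cre (6 libraries). The LCD KO group carried the same allele with Zp3-Cre (7 libraries), and the HD mutant group carried Tet3 LCD HD Mutf/f with Zp3-Cre (5 libraries), where HD is not defined in the sources used here. Dnmt3a KO oocytes were Dnmt3af/f with Zp3-Cre, and the double knockout (DKO) combined both floxed alleles with Zp3-Cre (2 libraries each). A further group was labelled Tet3f/f with Zp3-Cre (Tet3 KO, 2 libraries). The 2 columns labelled as a Tet1, 2, 3 triple knockout were identical in every feature to the 2 Tet3 KO columns, so each pair was counted once, which left 24 distinct libraries. Zp3-Cre is driven by the promoter of a zona pellucida gene and acts in growing oocytes. Every group except WT carried it, so an effect of Cre and one of the floxed alleles cannot be told apart against WT. The labels state neither age nor strain.

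These factors act in an order in the female germline. Sohlh1 and Sohlh2, a pair of basic helix-loop-helix proteins, act in oocytes of primordial follicles and are needed for Lhx8, Figla and Nobox. Lhx8 is a LIM homeodomain protein, Nobox a homeodomain protein and Figla a basic helix-loop-helix protein that pairs with E proteins on E-boxes and is needed for the zona pellucida genes. Foxo3 holds primordial follicles dormant until PI3K and AKT signalling removes it from the nucleus. Taf4b is a subunit of TFIID found mainly in germ cells, and Tbpl2 replaces the TATA-binding protein in growing oocytes. Nr6a1 encodes GCNF, an orphan nuclear receptor and repressor, and Pou5f1 encodes OCT4, which the oocyte stores as a maternal factor.

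The stretch before the start of 3 of these genes is shown because Figla was the member that fell in LCD KO, Lhx8 had the next smallest p and Nobox did not pass the test. Zar1, a maternal-effect gene that fell, is shown as a gene known to need Nobox. Each is the 250 bases before the RefSeq start site in GRCm38.p6, written 5′ to 3′ on the strand of the gene, with every E-box (CANNTG, on either strand) in capitals.
Figla (chr6:86016941-86017190, plus strand): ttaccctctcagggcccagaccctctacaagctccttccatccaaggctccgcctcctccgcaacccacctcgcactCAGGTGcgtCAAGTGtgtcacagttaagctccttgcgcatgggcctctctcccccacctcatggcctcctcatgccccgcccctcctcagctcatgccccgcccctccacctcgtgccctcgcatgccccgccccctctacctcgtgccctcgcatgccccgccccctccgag
Lhx8 (chr3:154330561-154330810, minus strand): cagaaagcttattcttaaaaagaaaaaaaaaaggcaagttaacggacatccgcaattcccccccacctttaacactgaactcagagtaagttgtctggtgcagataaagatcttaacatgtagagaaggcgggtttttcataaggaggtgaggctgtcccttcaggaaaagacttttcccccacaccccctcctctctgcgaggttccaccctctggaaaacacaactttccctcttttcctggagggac
Nobox (chr6:43309555-43309804, minus strand): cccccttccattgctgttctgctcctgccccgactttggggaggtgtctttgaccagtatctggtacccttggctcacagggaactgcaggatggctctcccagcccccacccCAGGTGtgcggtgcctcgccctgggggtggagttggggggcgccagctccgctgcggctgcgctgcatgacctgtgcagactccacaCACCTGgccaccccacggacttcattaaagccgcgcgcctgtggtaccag
Zar1 (chr5:72581085-72581334, minus strand): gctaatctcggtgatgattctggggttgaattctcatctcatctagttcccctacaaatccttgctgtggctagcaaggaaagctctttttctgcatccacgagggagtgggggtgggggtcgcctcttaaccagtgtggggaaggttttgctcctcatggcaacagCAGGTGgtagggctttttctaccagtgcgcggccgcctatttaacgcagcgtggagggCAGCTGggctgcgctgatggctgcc
The window of Figla held 2 E-boxes, starting 173 and 164 bases before the start site. The windows of Nobox and Zar1 held 2 each, and that of Lhx8 held 0. An E-box occurred in 66.2% of all 32851 promoter windows of this length. The homeodomain elements TAATTG and TAATTA (either strand), which occurred in 7.17% and 4.84% of all windows, were found in none of these 4. Windows were on hand for 9 of the 10 members. Figla had 14 CpG dinucleotides in its window, Nobox 11 and Lhx8 4, against a median of 6 over all windows, and Foxo3 had 31. The windows are annotated starts, and the starts used in these oocytes were not measured. A match is a description of the letters only.

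Total counts ranged from 1838824 to 7833087 per library. The labels put 22 of the libraries in 3 batches: WT and LCD KO were in all 3, HD mutant 1 to 3 in batch 2, and Dnmt3a KO, DKO and Tet3 KO in batch 3. HD mutant 4 and 5 had no stated batch. Levels are given as CPM (counts per 1e6 counts, scaled with TMM factors). Fold changes are on the log2 scale ± standard error, adjusted for batch, with Benjamini-Hochberg adjusted p-values from edgeR over the 11794 genes that passed a filter on low counts. Genes with an adjusted p below 0.05 were called. Among WT libraries the mean level of Tet3 was 248 CPM with an SD of 95.3, and among LCD KO libraries it was 91.4 CPM with an SD of 63.0. In both libraries with the label Tet3 KO the count of Tet3 was not reduced (309 ± 67.3 CPM, n = 2), whereas Dnmt3a stood at 123 ± 26.7 CPM against 338 ± 143 in the WT libraries. These libraries go against their label, so directions drawn from them are those of the labelled libraries only. All 14 oocyte markers were detected in each of the 6 groups. The 14 granulosa or cumulus markers summed to between 51.8 and 116 CPM in all libraries except LCD KO 2, where they reached 398 CPM, 292 of it from Inha. In LCD KO against WT the granulosa marker Hsd3b1 was higher (0.99 ± 0.33) and so was the stroma marker Dcn (2.08 ± 0.44), and theca and stroma markers summed to at most 6.30 CPM in any library. The part of these transcripts in the results was not tested.

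Of the 10 members, 9 passed the filter and were tested, and Sohlh1 did not. In WT, levels per kilobase of annotated exon placed Nobox first at 249.6 ± 119.5 CPM per kb (SD, n = 6), followed by Pou5f1 at 193 ± 91.0, and the ranges of these 2 overlapped. In batch 2 the order was reversed, with Pou5f1 at 158 and Nobox at 139 CPM per kb in WT 4. Figla at 73.0 ± 18.1 and Lhx8 at 58.0 ± 9.84 CPM per kb came next, again with overlapping ranges, and the highest Figla value (103) lay above the lowest Pou5f1 value (89.3). Tbpl2 (16.7 ± 8.02 CPM per kb), Foxo3 (14.9 ± 9.09) and Nr6a1 (8.91 ± 3.31) came below these with overlapping ranges, and their order depended on the batch. Foxo3 was above Tbpl2 in batch 1 (18.6 against 11.98 CPM per kb) and batch 2 (25.2 against 11.7), but in batch 3 it was the lowest of the 3, at 4.09 CPM per kb against 13.04 for Nr6a1 and 26.1 for Tbpl2. Taf4b (3.01 ± 0.706) and Sohlh2 (2.70 ± 0.792) could not be separated from each other, and Sohlh1 was at 0.151 ± 0.370. Exon lengths came from GENCODE M21, so a gene whose oocyte transcript is shorter than its annotated exons is placed too low.

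**Figure D1:**
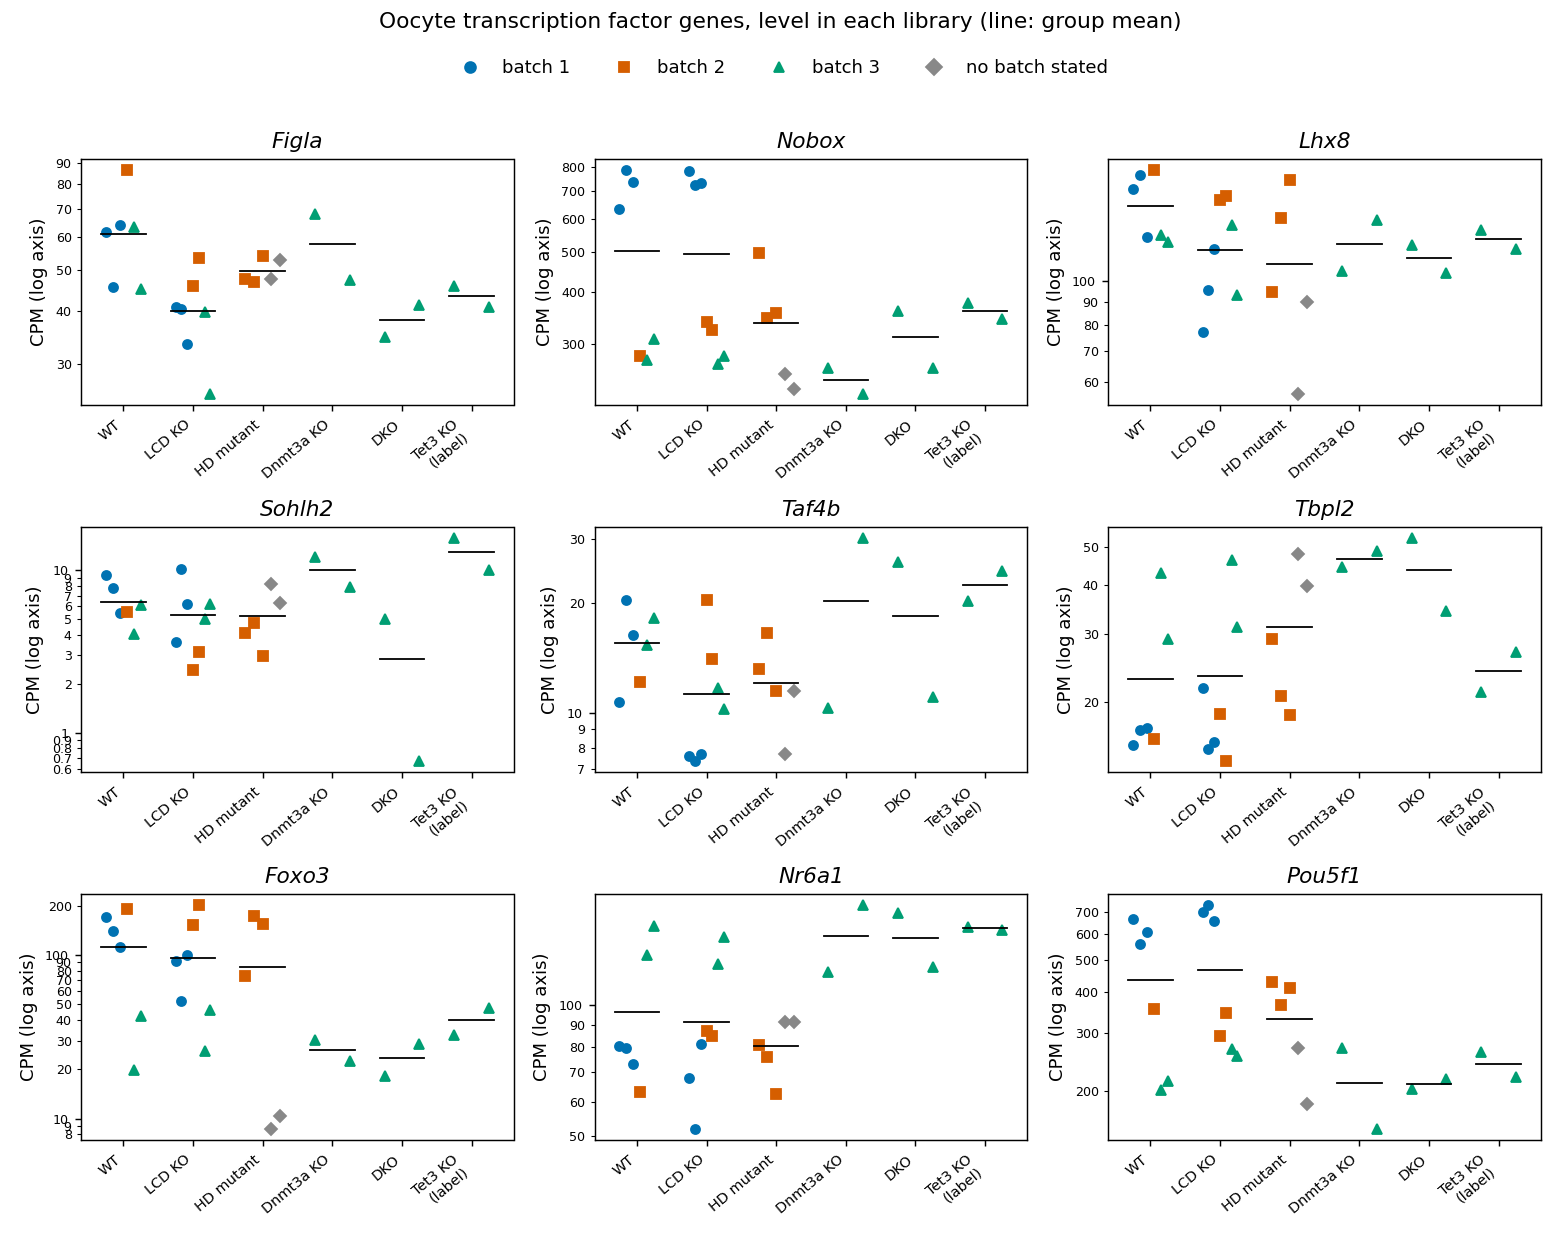
CPM on a log axis (vertical) of the 9 tested genes in each of the 24 distinct libraries (points, coloured by batch), by group, with the group mean as a line. In WT and LCD KO, Nobox and Pou5f1 are highest in batch 1, Tbpl2 and Nr6a1 in batch 3, and Foxo3 is lowest in batch 3; Figla is lower in LCD KO than in WT within each batch.

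Much of the variation of these genes lay between batches. Foxo3 averaged 141 CPM in the WT libraries of batch 1 (n = 3), 191 in the single one of batch 2 and 31.0 in batch 3 (n = 2), a 6.15-fold range of batch means. LCD KO showed the same order, with 81.4, 177 and 35.9 CPM, and HD mutant 4 and 5, without a stated batch, had the lowest Foxo3 values of all libraries at 8.68 and 10.4 CPM. The batch means of Foxo3 thus lay further apart than the 2 group means of any single batch. Pou5f1 ran from 612 CPM in WT of batch 1 to 208 in batch 3 and Nobox from 717 to 291, while Tbpl2 went the other way, from 16.5 to 36.1 CPM, as did Nr6a1 (77.8 to 141). Figla (57.1, 86.4 and 54.3 CPM) and Lhx8 (152, 176 and 124) varied least among the abundant members. The batches also differed in depth and in TMM factors, which were 0.734 to 0.760 in batch 1 and at least 1.03 in batches 2 and 3. The part of these in the batch differences was not tested. For this reason each comparison below was read within batches as well.

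In oocytes without the Tet3 domain Figla was lower than in WT, and the other 8 tested members were not called. Figla stood between 45.2 and 86.4 CPM in WT (median 62.5, n = 6) and between 25.5 and 53.4 CPM in LCD KO (median 40.5, n = 7). In batch 1 the WT libraries held 61.7, 45.8 and 63.9 CPM and the LCD KO libraries 41.0, 40.5 and 33.4. In batch 2 WT 4 held 86.4 CPM against 46.0 and 53.4 in LCD KO, and in batch 3 WT held 63.4 and 45.2 CPM against 39.7 and 25.5. Every LCD KO library was below every WT library of its own batch, although the groups overlap when batches are pooled. The log2 fold change was -0.68 ± 0.14 (adjusted p = 0.00122), with a 95% interval from -0.95 to -0.41. Without LCD KO 2, the library with the most Inha, it was -0.72 ± 0.15 (adjusted p = 0.0017). In pools, less RNA per oocyte and fewer oocytes with the transcript cannot be told apart. Without batch 1 the fold change was -0.77 ± 0.20 (adjusted p = 0.0356), and without the batch term the call was just lost at -0.61 ± 0.18 (adjusted p = 0.0502).

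A count of 1 called member among 9 is not above the background, because 18.3% of all 11794 genes were called in this comparison. Genes called lower made up 9.44% of all genes and genes called higher 8.89%. Figla was also the 1 member of 9 that was lower in LCD KO without overlap in each of the 3 batches, which held for 5.62% of all genes, and 11.5% did not overlap in either direction. For single batches and for other comparisons this share was not counted, so nothing is read from such an order below. The median log2 fold change of the members was -0.28, against -0.02 over all genes.

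**Figure D2:**
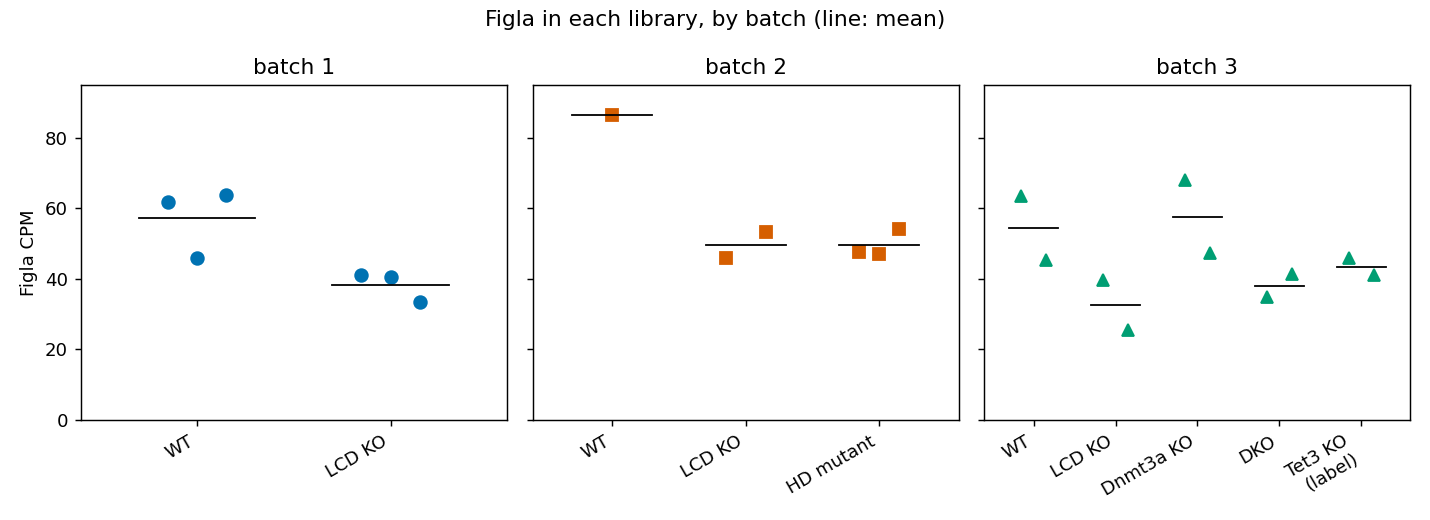
CPM of Figla (vertical, from 0) in each library with a stated batch, 1 panel per batch, with the mean of each group as a line. LCD KO means are 38.3 against 57.1 CPM in batch 1, 49.7 against 86.4 in batch 2 (1 WT library) and 32.6 against 54.3 in batch 3.

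Lhx8 was the member next to the threshold. It held 122 to 176 CPM in WT (median 143, n = 6) and 77.2 to 154 in LCD KO (median 118, n = 7), with a log2 fold change of -0.39 ± 0.14 (adjusted p = 0.0579). In batch 1 the 3 LCD KO libraries averaged 97.0 CPM against 152 in WT without overlap, a share not counted over all genes for this batch. The means were 153 against 176 in batch 2 and 113 against 124 in batch 3, where the groups overlapped. The adjusted p of Lhx8 passed in the fit without batch 2 (-0.44 ± 0.15, adjusted p = 0.0446) and reached 0.717 without batch 1 (-0.17 ± 0.19).

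Taf4b showed a difference that depended on the batch. Its LCD KO libraries in batch 1 held 7.56 CPM on average against 15.8 in WT, and 10.9 against 16.8 in batch 3, but 17.2 against 12.2 in batch 2, where the only WT library was WT 4. The batch-adjusted change was -0.54 ± 0.27 (adjusted p = 0.165). Leaving out WT 4 gave -0.87 ± 0.28 (adjusted p = 0.0333), and leaving out batch 2 gave -0.87 ± 0.28 (adjusted p = 0.0346). Without WT 4 no WT library of batch 2 remains, so the call depended on whether batch 2 was compared. Foxo3 in LCD KO lay below WT without overlap in batch 1, at 81.4 against 141 CPM. In batches 2 and 3 its groups overlapped, with means of 177 against 191 and 35.9 against 31.0 CPM, and the change over all batches was -0.35 ± 0.25 (adjusted p = 0.354). In batch 1 alone 4 members were called, Figla, Lhx8, Taf4b and Foxo3, and in batches 2 and 3 alone 0. Of all genes tested in these fits, 30.3% were called in batch 1 alone, 0.0946% in batch 2 alone and 0.789% in batch 3 alone.

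The remaining members were closer to 0 or less precisely measured. Nobox had a log2 fold change of 0.05 ± 0.11 (adjusted p = 0.803), with a 95% interval from -0.17 to 0.27, and its batch 1 means were 745 CPM in LCD KO and 717 in WT. Pou5f1 was at 0.16 ± 0.12 (adjusted p = 0.370) and Tbpl2 at 0.08 ± 0.17 (adjusted p = 0.787). Nr6a1 was at -0.03 ± 0.13 (adjusted p = 0.907). Sohlh2, at 4.08 to 9.30 CPM in WT and 2.44 to 10.2 in LCD KO, was at -0.28 ± 0.30 (adjusted p = 0.546), with a 95% interval from -0.86 to 0.30 that spans a larger change than that of Nobox.

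**Figure D3:**
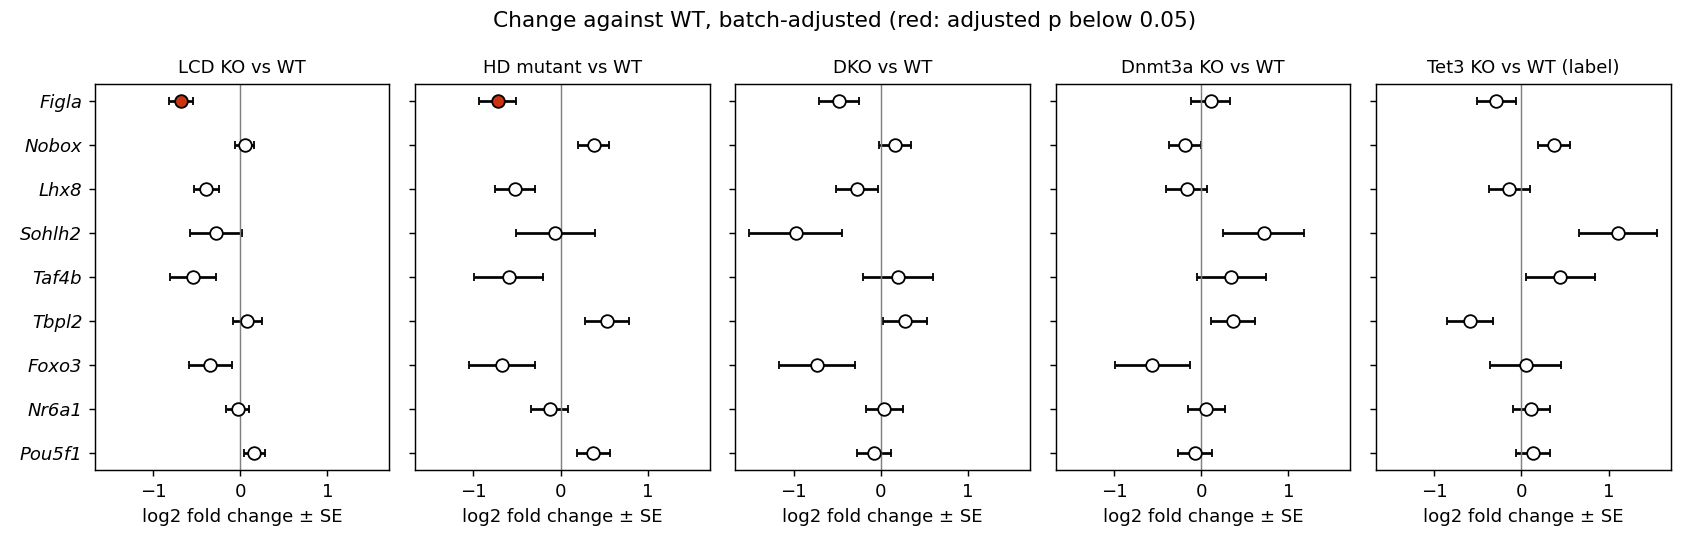
Batch-adjusted log2 fold change against WT (horizontal, points with bars of 1 standard error) of the 9 tested genes in 5 groups, with red points for an adjusted p below 0.05. Figla is red in LCD KO and in HD mutant, at -0.68 and -0.72, and no other point is red.

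Figla in the HD mutant was close to its level in LCD KO. Its 3 libraries of batch 2 held 47.7, 46.9 and 54.1 CPM, against 46.0 and 53.4 in LCD KO and 86.4 in WT 4. HD mutant 4 and 5 held 47.7 and 52.9 CPM. The log2 fold change of Figla against WT was -0.72 ± 0.21 (adjusted p = 0.0344) and that against LCD KO -0.04 ± 0.20 (adjusted p = 0.952), with a 95% interval from -0.43 to 0.35. In HD mutant against WT 7.83% of all genes were called, and in HD mutant against LCD KO 2.08%. Figla was the 1 called member of 9 against WT, and 0 members were called against LCD KO by edgeR, with 0 at an unadjusted p below 0.05. The comparison with WT rests on a single WT library of the same batch. Leaving out WT 4 gave -0.65 ± 0.27 (adjusted p = 0.150), and adding HD mutant 4 and 5 without a batch term gave -0.30 ± 0.19 (adjusted p = 0.431).

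Nobox, Pou5f1 and Tbpl2 had positive values in the HD mutant that did not pass. Nobox held 496, 346 and 355 CPM in batch 2 against 281 in WT 4 (log2 fold change 0.38 ± 0.18, adjusted p = 0.189). Pou5f1 held 430, 364 and 411 CPM against 356 (0.38 ± 0.19, adjusted p = 0.212), and Tbpl2 29.1, 20.7 and 18.6 against 16.1 (0.54 ± 0.25, adjusted p = 0.189). In each case all 3 libraries of the mutant lay above the single control. The share of all genes without overlap against this 1 library was not counted, so nothing is read from such an order here or below. HD mutant 4 and 5, without a stated batch, were below WT 4 for Nobox (254 and 234 CPM) and Pou5f1 (269.6 and 182 CPM) and above it for Tbpl2 (48.2 and 39.7 CPM). Lhx8 (-0.53 ± 0.23, adjusted p = 0.148) and Foxo3 (-0.67 ± 0.38, adjusted p = 0.283) had negative values, and their HD mutant libraries of batch 2 lay below WT 4. Foxo3 passed without the filter on low counts (-0.69 ± 0.23, adjusted p = 0.0407) and with the replicate block (-3.30 ± 0.84, adjusted p = 0.0467). No HD mutant library shares both batch and replicate number with WT, so nothing is read from the value with the block. Within batch 2 the log2 ratio of the Foxo3 means was -0.51. Taf4b had a fitted value of -0.60 ± 0.40, but within batch 2 its direction was the opposite, with a mean of 13.8 CPM in the HD mutant against 12.2 in WT 4, and the groups overlapped.

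Sohlh1, the helix-loop-helix factor of primordial oocytes, was at or near 0 in these grown oocytes. It had 23 counts over all 24 libraries and was detected in 6 of them. HD mutant 1, 2 and 3 held 9, 4 and 5 of these counts, while WT 4 and LCD KO 4 and 5 of the same batch held 0. Over the HD mutant libraries of batch 2 this was 0.849 CPM, at least 1.58-fold above the limit of 0.537 CPM that 0 counts in WT 4 allow (3 counts) and at least 5.06-fold above the limit of 0.168 CPM over the 2 LCD KO libraries. Limits cover counting error only. Without the filter edgeR gave Sohlh1 an adjusted p of 0.139 against WT and 0.112 against LCD KO. WT 3 held 3 counts, and LCD KO 1 and LCD KO 7 held 1 each.

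In Dnmt3a KO and DKO, each against WT, 0 of 9 members were called by edgeR or DESeq2. Figla held 67.9 and 47.3 CPM in Dnmt3a KO, 34.7 and 41.4 in DKO, 63.4 and 45.2 in WT of the same batch and 39.7 and 25.5 in LCD KO. The 2 DKO libraries were below both WT libraries and both Dnmt3a KO libraries, and overlapped with LCD KO. The share of all genes with such an order in this batch was not counted, so nothing is read from it. The log2 fold change of Figla was 0.11 ± 0.22 in Dnmt3a KO against WT (adjusted p = 0.877) and -0.48 ± 0.23 in DKO against WT (adjusted p = 0.266). Between DKO and Dnmt3a KO, which both carry Cre, Figla was at -0.59 ± 0.25 (adjusted p = 0.238) and was not called. For Figla, the difference of DKO from Dnmt3a KO and that of LCD KO from WT differed by 0.09 ± 0.28 (adjusted p = 0.969, 95% interval from -0.47 to 0.64). Cre was in both groups of the first difference but only in LCD KO in the second. An effect of Cre therefore does not cancel here. Of all genes 0.0678% were called for such a difference, with 0 of 9 members. Background shares of called genes were 0.755% in Dnmt3a KO against WT, 3.79% in DKO against WT, 1.99% in DKO against Dnmt3a KO and 0.314% in DKO against LCD KO. The members with an unadjusted p below 0.05 numbered 0, 1, 2 and 0 in these comparisons.

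Sohlh2 had the largest fold changes of the members in DKO against WT and against Dnmt3a KO, on few counts, whereas against LCD KO that of Taf4b was larger (0.73 ± 0.41, adjusted p = 0.724). Its level was 12.1 and 7.92 CPM in Dnmt3a KO and 5.02 and 0.668 in DKO, where DKO 2 held 2 counts. DKO libraries were below those of Dnmt3a KO, with a log2 fold change of -1.69 ± 0.55 (adjusted p = 0.114). In the labelled Tet3 KO libraries Sohlh2 stood at 15.9 and 10.004 CPM, above both WT libraries of batch 3 (4.08 and 6.15), with 1.11 ± 0.45 against WT (adjusted p = 0.350). It passed between DKO and Dnmt3a KO without the filter on low counts (adjusted p = 0.0311) and without DKO 1 (-3.83 ± 0.86, adjusted p = 0.0333), which leaves only the library with 2 counts.

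Against WT, 1.37% of genes and 0 of 9 members were called in the libraries labelled Tet3 KO, where 3 members had an unadjusted p below 0.05. There Figla was at 45.9 and 41.0 CPM (-0.29 ± 0.22, adjusted p = 0.845). Tbpl2 held 21.2 and 26.8 CPM, below the WT libraries of the batch at 43.0 and 29.1 (-0.59 ± 0.26, adjusted p = 0.447), and Nobox held 377 and 344 CPM, above them at 275 and 308 (0.37 ± 0.18, adjusted p = 0.529). None of these differences passed.

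Genes known to need Nobox, Figla, the Sohlh factors or Lhx8 were followed as a list of 17, all of which were tested. In LCD KO 11 of 17 fell, 0 rose and 6 did not pass, against 9.44% of all genes called lower. The list was chosen with earlier results of these data known, and the count was added after seeing the data. Setting it beside the share of all genes is therefore a description and not a test. The median of the list was -0.53, with -0.02 over all genes. The largest fall was that of Kit, the receptor for Kit ligand (-1.40 ± 0.26). Fgf8, a growth factor sent to the cumulus cells, fell by 0.82 ± 0.16 on the log2 scale, Padi6, a protein of the cytoplasmic lattices, by 0.80 ± 0.22, Mos, the kinase upstream of MAPK in the maturing oocyte, by 0.77 ± 0.12 and Zp2, a zona pellucida protein, by 0.68 ± 0.16. The others were Zar1, Dnmt1, Rspo2, Zp1, Oosp1 and Kdm1b. Zp3 (-0.30 ± 0.11, adjusted p = 0.0582), Bmp15 (-0.72 ± 0.26, adjusted p = 0.0564), Gdf9, Rfpl4, Lin28a and H1foo did not pass. Of the list 9 genes also serve here as general oocyte markers, so it does not isolate the targets of these factors.

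The size of this fall varied with the batch. The list's median was -0.76 in batch 1 alone (15 of 17 called lower), -0.12 in batch 2 alone and -0.27 in batch 3 alone (0 called in each). Of all genes 30.3%, 0.0946% and 0.789% were called in these 3 fits, so the counts of called genes do not compare the batches. Without batch 1 the median was -0.27 and 0 of 17 were called by edgeR, with 4 at an unadjusted p below 0.05, while 16 of 17 values stayed below 0. In that fit 3.07% of all genes were called. Figla was called in batch 1 alone (-0.55 ± 0.17, adjusted p = 0.0254) and in the fit without batch 1. In the HD mutant 2 of the 17 were called lower, Kit (-1.49 ± 0.41) and Zp2 (-0.93 ± 0.25), against 3.75% of all genes, with a median of -0.38. Leaving out HD mutant 1, LCD KO 4 or LCD KO 5 gave 0, and leaving out WT 4 gave 1. No gene of the list was called in Dnmt3a KO, DKO or the libraries labelled Tet3 KO against WT, where 4, 2 and 0 had an unadjusted p below 0.05 and the medians were -0.29, -0.29 and -0.08. Of all genes 0.755%, 3.79% and 1.37% were called there, so these counts do not compare the groups with LCD KO.

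**Figure D4:**
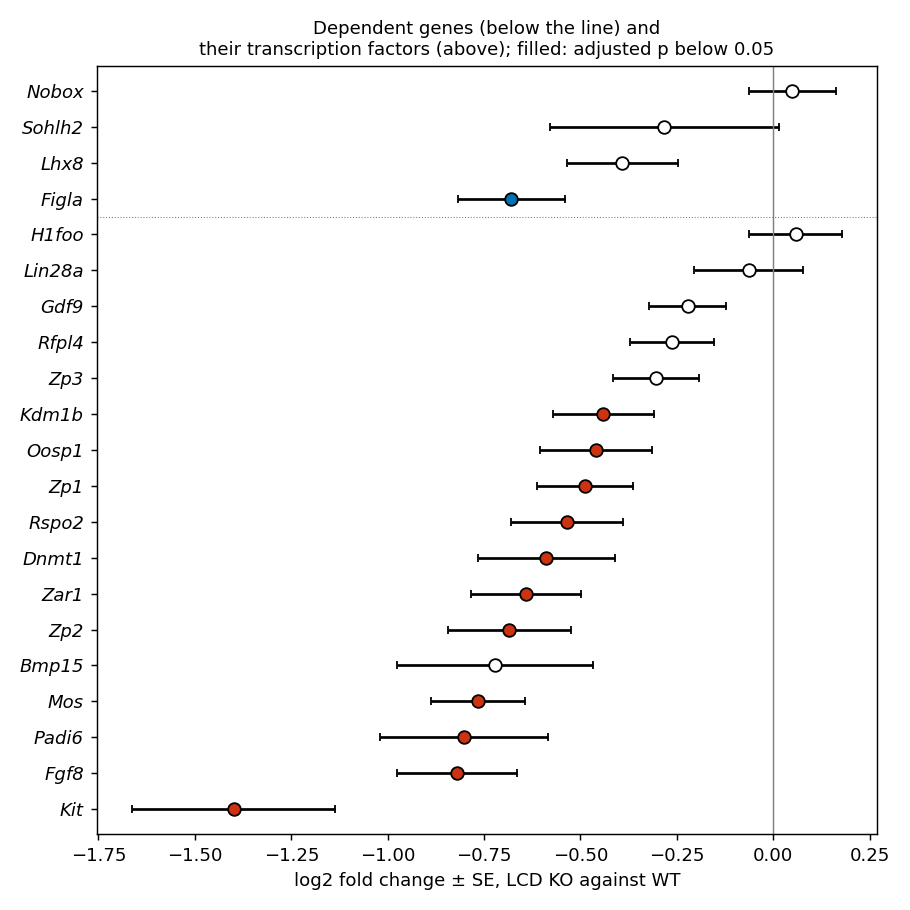
Log2 fold change in LCD KO against WT (horizontal, with bars of 1 standard error) of the 17 dependent genes below the dotted line and of 4 of their transcription factors above it, filled where the adjusted p is below 0.05. Kit has the largest fall at -1.40; of the 4 factors Figla is filled and Nobox lies at 0.05.

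Among the partners of the helix-loop-helix and LIM factors, an inhibitor and a cofactor rose. Of 11 tested genes among E proteins, ID proteins and LIM cofactors, 2 rose in LCD KO and 0 fell, against 8.89% of all genes called higher and 9.44% lower. Id3, an inhibitor that binds E proteins and keeps them from DNA, rose by 1.15 ± 0.20 (adjusted p = 0.000262), and its level was 10.2 to 34.7 CPM in the 6 WT libraries and 24.5 to 57.6 CPM in the 7 LCD KO libraries. Ldb2, a cofactor of LIM domain proteins, rose by 1.26 ± 0.22 (adjusted p = 0.000282). Tcf3 (-0.09, adjusted p = 0.719) and Tcf12 (-0.27), which are E proteins, and Ldb1 (-0.47, adjusted p = 0.152) were not called. Tcf4, a further E protein on few counts, was not called in LCD KO either. Its mean was 2.23 CPM in WT, 1.85 in LCD KO, 4.44 in Dnmt3a KO and 0.251 in DKO. In the HD mutant Id3 rose by 0.93 ± 0.29 (adjusted p = 0.0471), where 4.08% of all genes were called higher. It rose by 2.08 ± 0.31 in DKO (adjusted p = 0.000149) and by 1.32 ± 0.32 in Dnmt3a KO (adjusted p = 0.0464). For the labelled Tet3 KO libraries its value was 0.82 ± 0.33 (adjusted p = 0.343). These comparisons share the WT libraries. Id3 was thus called in 4 of the 5 groups with Cre. A link between Id3 and Figla was not tested.

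Around the other members the shares of called genes are set against 8.89% of all genes called higher and 9.44% lower in LCD KO, and 4.08% and 3.75% in the HD mutant. Of 19 tested genes of TFIID, TFIIA and the TBP family 1 rose in LCD KO and 0 fell, namely Taf9b, a TFIID subunit related to Taf9 (0.47 ± 0.12, adjusted p = 0.00707), which was also higher in the HD mutant (0.64 ± 0.19, adjusted p = 0.0376). Tbp (0.05, adjusted p = 0.786) and Gtf2a1l, the germ cell form of TFIIA (0.00, adjusted p = 0.998), were not called. Of 18 genes around PI3K, AKT and FOXO 2 fell in LCD KO, Kit and Foxo1, the paralog of Foxo3 (-0.94 ± 0.17, adjusted p = 0.000262), and 0 rose. Foxo1 fell in the HD mutant as well (-0.95 ± 0.25, adjusted p = 0.0220), together with Kit and Rptor, a subunit of mTORC1 (-0.75 ± 0.23). Among 12 tested partners of Pou5f1 and related receptors 1 fell in LCD KO, Pou2f1, which encodes the octamer-binding factor OCT1 (-0.51 ± 0.13, adjusted p = 0.00802). It fell in the HD mutant too (-0.98 ± 0.20, adjusted p = 0.00342), along with Tfap2c (-1.02 ± 0.26).

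Over the 22 libraries with a batch, and with batch means removed, the Pearson r of log2 CPM among the 36 pairs of tested members ran from -0.713 (Taf4b with Pou5f1) to 0.667 (Taf4b with Nr6a1), with 0.417 for Figla with Lhx8. Libraries share depth and composition, so these values are descriptions. Among 9184 genes with at least 5 CPM, the genes most like Figla were Sesn3 (r = 0.883) and Mrps7 (0.849), and those most like Lhx8 were March5 (0.904) and Osbp (0.873). For Foxo3 they were Ern1 (0.895) and Adgrg1 (0.883), for Nobox Pex19 (0.848) and Zkscan14 (0.769), and for Pou5f1 Fbxl6 (0.855) and Thap7 (0.833). Nr6a1 was most like Gda (0.870) and Kpna3 (0.796), Taf4b most like Washc5 (0.845) and Mapk8 (0.822), Tbpl2 most like A630010A05Rik (0.805) and 4930556L07Rik (0.789), and Sohlh2 most like Fkbp1a (0.786) and Acpp (0.781). An annotated antisense gene overlaps 317 bases of the exons of Pou5f1, and no source used here gives the strand setting of the counts. Its reads and those of Pou5f1 cannot be told apart.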

How the data were processed

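The authors deposited 1 table of unnormalized read counts, with a row for each gene symbol. Trim Galore 0.5.0, HISAT2 2.1.0 and featureCounts 1.6.4, and the build mm9, are named in the submitters' processing notes. Annotation, strand setting and the handling of multiply mapped reads are not given in the sources used here. The 92 spike-in features (1 count in the 24 distinct libraries) were left out. Counts were tested with edgeR 4.0.16 in R 4.3.3 (TMM factors, filterByExpr by group, robust quasi-likelihood F test, an additive design of group plus batch) on the 22 libraries whose batch is labelled, with 14 residual degrees of freedom. Standard errors are the log2 fold change divided by the root of F. HD mutant 4 and 5 enter levels and 1 alternative only. The procedure was run on simulated counts with the same dispersion for every gene and no batch differences, so that run does not check the batch term. DESeq2 1.42.0, other scaling, no filter, no batch term, single batches, a replicate block and leaving out each library were the alternatives. All members are named; of each list the counts are given and at most 5 genes described, chosen by the size of a called change in LCD KO or by a role named in the text; the further dependent genes, Rptor and Tfap2c were named after their values were seen. Nearest patterns are the 2 genes with the highest r. Members and lists were chosen with earlier results of these data known. The list named for theca or stroma had 1 tested gene of 8, Dcn (higher in LCD KO by 2.08 ± 0.44), and that for blood or endothelium 2 of 7, with 0 called in LCD KO. Of the granulosa or cumulus markers 7 of 14 were tested and 1 was called in LCD KO, Hsd3b1 (0.99 ± 0.33); of the 14 oocyte markers 5 fell and 0 rose there.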

Additional observations from a re-analysis of the deposited data

Results flagged for a closer look

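Sohlh1 in WT 3 stood at 1.17 CPM, from 3 counts, while the other 5 WT libraries were at 0. It was picked out because its gap to the rest took up the whole range of the group. With the others at 0, any single library with a count has such a gap, so the usual chance rate of about 1 in 20 groups does not apply to it, and nothing is read from it.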

How the results depend on the processing

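The fall of Figla in LCD KO was called in all 22 fits that left out 1 library (log2 fold change -0.75 to -0.60) and by DESeq2 (adjusted p = 6.41e-05). It was not called in batch 2 alone (-0.77) or batch 3 alone (-0.75), where fewer libraries were tested. Called members in LCD KO numbered 0 without the batch term, 2 without the filter, 2 with the replicate block, 4, 0 and 0 in batches 1, 2 and 3 alone, 3 without batch 2 (chosen after seeing the data) and 1 to 2 on leaving out 1 library (Lhx8 was added without HD mutant 1, HD mutant 3 or LCD KO 6, and Taf4b without WT 4). In HD mutant against WT they numbered 0 without the batch term, 2 without the filter, 0 in batch 2 alone, 0 with HD mutant 4 and 5 added, 0 without batch 1 (chosen after seeing the data) and 0 to 1 on leaving out 1 library (without HD mutant 1, HD mutant 2, LCD KO 5 or WT 4). In DKO against Dnmt3a KO they numbered 1 without the filter and 0 to 1 on leaving out 1 library. With the replicate block Figla in HD mutant against WT reversed to 0.13 ± 0.57; no HD mutant library shares both batch and number with WT, and the cause was not tested. Deviations of same-numbered libraries of different groups within a batch had a correlation of -0.32 to 0.27, with 2 of 10 pairs above 0.1. In batch 3 each group has 2 libraries, so their deviations from the group mean mirror each other. The 2 pairs above 0.1 thus hold 1 value (0.27). This check cannot decide whether replicate numbers pair the libraries. The block added Foxo3 in LCD KO (-0.68, adjusted p = 0.0478), and in HD mutant against WT it called Foxo3 (-3.30, adjusted p = 0.0467) in place of Figla; without the filter both were called there.

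The 11 dependent genes called lower in LCD KO, a count added after seeing the data, became 0 without the batch term, in batch 2 alone, in batch 3 alone and without batch 1, and lay between 8 and 13 on leaving out 1 library. In HD mutant the 2 became 0 without the batch term, with the replicate block, in batch 2 alone and without batch 1, 1 with library size as the only scaling or with HD mutant 4 and 5 added, 5 without the filter and 0 to 3 on leaving out 1 library. Over all genes LCD KO had 2162 calls, 544 without the batch term and 363 without batch 1. Batches 1, 2 and 3 alone had 2851, 12 and 88. HD mutant against WT had 923, and 365, 300, 40 and 220 without the batch term, without batch 1, in batch 2 alone and with the block. Where no cause is named it was not tested. Low counts limit Sohlh1 and Sohlh2.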
